A study of Mus musculus with 7 samples.

Results

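The data describe 10 genes of the earliest thymic T cell progenitors and of Notch signalling, namely Kit, Notch1, Notch3, Hes1, Dtx1, Lyl1, Hhex, Spi1, Mef2c and Bcl11a, in whole thymus of RelB-/- and RelB+/- mice. The genes were taken as a named list, and all array probes whose platform symbol is one of them were used. That gave 11 probes of 25695, covering 9 of the 10 genes. No probe had the symbol Kit, so the expression of Kit was not measured. A probe was kept for testing when its detection p-value was under 0.05 on at least 3 arrays, which held for 10 of the 11 probes and for all 9 genes, against 12465 kept probes and 9569 genes overall. Thymus RNA from 3 RelB-/- mice and 4 RelB+/- mice, all 8 weeks old, was hybridised to 7 Illumina arrays on 1 chip, 1 array per mouse. RelB belongs to the NF-kB family of transcription factors, and RelB-/- mice have no intact allele of it. The RelB+/- mice, which carry 1 disrupted allele, served as the controls, although the sample titles call them wild type. Strain, sex and the construction of the allele are not given in the sources used here.

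Progenitors that enter the thymus from blood still express genes of stem cells and of other blood lineages, among them the growth factor receptor gene Kit and the transcription factor genes Lyl1, Hhex, Spi1, Mef2c and Bcl11a. Thymic epithelium presents the Notch ligand DLL4 to them. Ligand binding releases the intracellular part of the receptor by cleavage, which enters the nucleus, joins the DNA-binding protein RBPJ and switches on targets such as Hes1, Dtx1 and Nrarp. As the cells commit to the T lineage, the progenitor genes are shut off while Notch1 and Notch3 act through the next stages. In whole thymus these early cells are a small minority, and RNA from double-positive thymocytes makes up most of what is measured.

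The arrays were of similar quality, with 45.9% to 49.4% of probes detected above background and correlations between arrays across genes of 0.953 to 0.986. The T cell genes Cd3d, Cd8b1 and Rag1 were detected on all 7 arrays, whereas the probe of Cd8a was detected on none. The targeted gene Relb had a log2 level of 4.46 ± 0.20 (SD, n = 3) in RelB-/- thymus, where 0 of 3 arrays detected it, and of 7.09 ± 0.064 (SD, n = 4) in RelB+/- thymus. RelB-/- 3 and RelB+/- 2 carried heart muscle transcripts: Nppa, the atrial hormone gene, read 12.6 and 9.98 there, and at most 4.52 and 5.02 on the other RelB-/- and RelB+/- arrays. Without both arrays the log2 folds, RelB-/- over RelB+/-, were 0.43 for Notch3, 0.48 for Dtx1, -0.35 for Hes1 and -0.30 for Mef2c, and those of Notch1, Lyl1, Hhex, Spi1 and Bcl11a are given with each gene. Values of single genes outside these 9 are given with all arrays only.

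None of the 9 measured genes passed the test for a difference between the genotypes. With limma's moderated test and Benjamini-Hochberg adjustment over 9569 genes, 0 of 9 had an adjusted p under 0.05, and their adjusted p lay between 0.317 and 0.784. Over all genes the same test called 0.773% of genes, with 64 lower (0.669%) and 10 higher (0.105%) in RelB-/- thymus. At an unadjusted p under 0.05, 2 of the 9 genes remained, Notch1 with a higher and Spi1 with a lower mean in RelB-/- thymus, against 13.2% of all genes. Spi1 entered the test only through its detection in RelB+/- thymus, so its place in this count is no support for a difference. The mean of RelB-/- thymus was higher for 6 genes (Notch1, Notch3, Dtx1, Lyl1, Hhex and Bcl11a) and lower for 3 (Hes1, Spi1 and Mef2c). Among all genes it was higher for 53.8%. The median log2 fold, RelB-/- over RelB+/-, was 0.33 over the 9 genes and 0.025 over all genes. The mean log2 level of the 9 genes was 6.77, 6.35 and 6.50 on RelB-/- arrays 1 to 3. On the RelB+/- arrays it was 6.30 to 6.54, so only RelB-/- 1 lay above that range. For none of the 9 did the genotypes separate completely, whereas complete separation was found for 13.6% of all genes. In these bulk samples fewer cells of a type and less RNA per cell cannot be told apart.

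**Figure D1:**
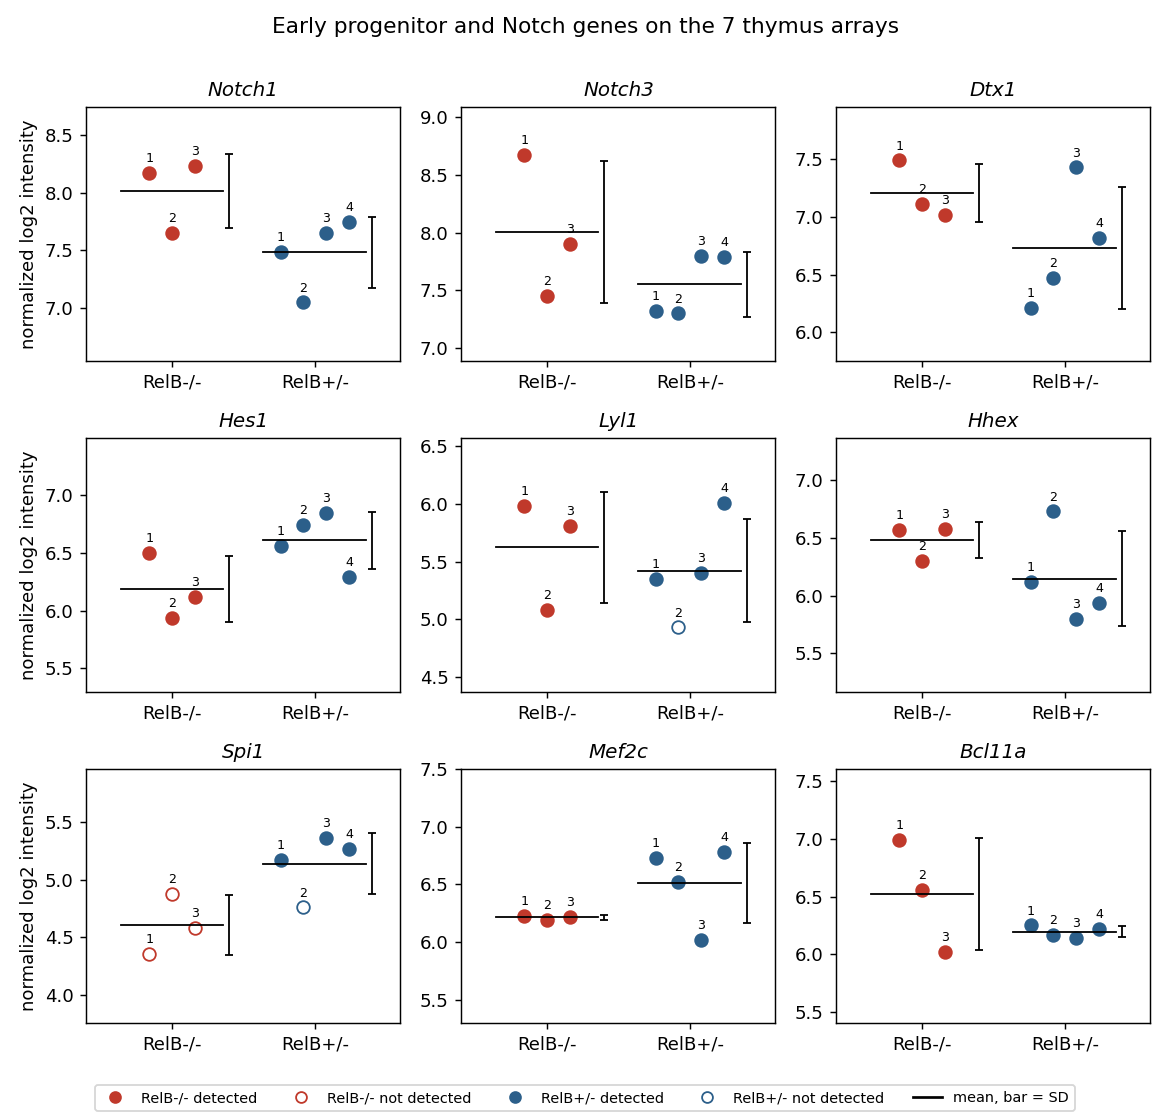
Normalized log2 intensity (vertical axis, 2.2 log2 units high in each panel) of the probe that stands for each gene, in RelB-/- (left, red) and RelB+/- thymus (right, blue). Each point is 1 array with its replicate number, open where the probe was not detected, with the group mean as a line and the SD as a bar. The groups overlap in every panel, and all RelB-/- points of Spi1 are open.

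Promoter sequences, 250 bases before to 50 after the start site, were available from RefSeq (GRCm38.p6) for 8 of the 10 genes, in 11 windows, and not for Hes1 and Spi1. They were searched on both strands for the core TGGGAA, the letters that RBPJ binds, and for GAGGAA, a core that PU.1 binds. TGGGAA was found in 1 of the 11 windows, that of Bcl11a, and in 25.6% of all 32851 windows. GAGGAA was found in 7 of the 11, from Notch1, Dtx1, Lyl1, Kit and Mef2c, and in 28.3% of all windows. Kit and Mef2c each give several of these windows, and the windows of Kit overlap almost fully, so the 11 are not independent. No match overlapped one of the other motif. The windows of Bcl11a (chr11:24080445-24080744, plus strand), Notch1 (chr2:26503773-26504072, minus strand), Dtx1 (chr5:120711620-120711919, minus strand) and Lyl1 (chr8:84701207-84701506, plus strand) are shown 5′ to 3′ on the gene's strand, with the matches in capitals, since they place these letters in a receptor gene, a Notch target gene and both kinds of progenitor factor gene. The capitals are TGGGAA in Bcl11a, GAGGAA in Lyl1 and its complement TTCCTC in Notch1 and Dtx1. A match describes the letters only.
Bcl11a: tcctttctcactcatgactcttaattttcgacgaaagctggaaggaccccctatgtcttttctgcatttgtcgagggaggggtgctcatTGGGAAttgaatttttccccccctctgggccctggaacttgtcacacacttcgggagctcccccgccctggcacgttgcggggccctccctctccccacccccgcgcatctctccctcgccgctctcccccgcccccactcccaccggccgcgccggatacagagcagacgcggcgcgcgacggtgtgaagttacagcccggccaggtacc
Notch1: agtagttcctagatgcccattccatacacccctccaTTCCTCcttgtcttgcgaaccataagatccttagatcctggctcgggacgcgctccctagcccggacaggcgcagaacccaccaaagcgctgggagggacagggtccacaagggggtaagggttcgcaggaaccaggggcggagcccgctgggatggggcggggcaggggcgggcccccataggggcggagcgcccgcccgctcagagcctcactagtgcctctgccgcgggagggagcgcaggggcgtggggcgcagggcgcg
Dtx1: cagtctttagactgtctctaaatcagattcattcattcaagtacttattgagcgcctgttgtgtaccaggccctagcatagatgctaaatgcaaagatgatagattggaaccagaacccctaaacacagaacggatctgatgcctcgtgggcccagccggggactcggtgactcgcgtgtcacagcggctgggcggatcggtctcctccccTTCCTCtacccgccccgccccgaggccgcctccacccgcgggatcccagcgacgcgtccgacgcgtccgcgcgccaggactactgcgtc
Lyl1: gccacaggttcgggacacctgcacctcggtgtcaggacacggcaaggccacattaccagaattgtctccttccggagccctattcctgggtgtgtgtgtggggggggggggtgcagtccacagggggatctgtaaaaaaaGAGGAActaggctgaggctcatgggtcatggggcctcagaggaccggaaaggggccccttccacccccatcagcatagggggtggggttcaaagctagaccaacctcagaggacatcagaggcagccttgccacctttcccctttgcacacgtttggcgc
Counted from the start site, the matches begin at -161 in Bcl11a, -214 in Notch1, -39 in Dtx1 and -110 in Lyl1.

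The Notch receptors were both higher on average in RelB-/- thymus, by less than the test could call. Notch1, the receptor that commits progenitors to the T lineage, had log2 levels of 8.17, 7.65 and 8.23 on RelB-/- arrays 1 to 3, against 7.49, 7.05, 7.65 and 7.75 on RelB+/- arrays 1 to 4. RelB-/- 1 and RelB-/- 3 lay above every RelB+/- array, and RelB-/- 2 lay within the RelB+/- range. The log2 fold was 0.53 (SE 0.22, 95% interval 0.032 to 1.03, limma adjusted p = 0.356). As deposited, the Notch1 intensities were 306, 298 and 459 for RelB-/- thymus, against 276, 175, 325 and 409 for RelB+/- thymus. Its lowest value was on RelB+/- 2, and without the arrays with heart muscle transcripts the log2 fold was 0.28.

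Notch3, a receptor gene that thymocytes express from early stages and that Notch signals raise, read 8.67, 7.45 and 7.90 in RelB-/- thymus, against 7.32, 7.30, 7.80 and 7.79 in RelB+/- thymus. One RelB-/- array, number 1, stood clear of the others, and RelB-/- 2 fell inside the RelB+/- range. The log2 fold of 0.45 (SE 0.29, 95% interval -0.20 to 1.11, adjusted p = 0.517) was 0.12 without RelB-/- 1 and 0.73 without RelB-/- 2. Notch3 is also a gene of vascular mural cells, whose 7 markers, all measured, summed to intensities of 521 to 2125 on RelB-/- arrays and 729 to 1712 on RelB+/- arrays. The RelB-/- upper end was on RelB-/- 3, an array with heart muscle transcripts, and RelB-/- 1 and RelB-/- 2 summed to 521 and 1205. The part of mural cells in the Notch3 values was not tested.

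The Notch targets among the genes, Dtx1 and Hes1, had means on opposite sides of the RelB+/- mean, and neither passed the test. Dtx1, an E3 ubiquitin ligase gene that Notch induces, read 7.49, 7.11 and 7.02 in RelB-/- thymus, against 6.21, 6.47, 7.43 and 6.82 in RelB+/- thymus. All RelB-/- arrays exceeded the RelB+/- mean, but RelB+/- 3 nearly reached the level of RelB-/- 1, and the RelB+/- arrays spread over more than 1 log2 unit. The log2 fold was 0.47 (SE 0.28, 95% interval -0.17 to 1.12, adjusted p = 0.495). It was 0.71 without RelB+/- 3 and 0.30 without RelB+/- 1. Hes1, a transcriptional repressor gene that Notch switches on, read 6.50, 5.94 and 6.12 in RelB-/- thymus, against 6.56, 6.74, 6.85 and 6.29 in RelB+/- thymus. RelB-/- 2 and RelB-/- 3 lay below every RelB+/- array, and RelB-/- 1 lay between RelB+/- 4 and RelB+/- 1. The log2 fold was -0.42 (SE 0.19, 95% interval -0.86 to 0.019, adjusted p = 0.397). The difference between the folds of Dtx1 and Hes1 was not tested.

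Other Notch pathway genes were taken from lists of ligands and receptors, of maturation and turnover genes, and of nuclear cofactors and targets. Of 41 genes 27 were measured, and 0 passed the test in either direction. At an unadjusted p under 0.05 there were 2, against 13.2% of all genes. The median log2 fold of the 27 was 0.16, and 22 of 27 were positive, against 53.8% of all genes. Dll4, the ligand of thymic epithelium, was near background, with a signal above it in 2 of 3 RelB-/- thymi and 2 of 4 RelB+/- thymi. It read 4.96, 5.19 and 4.98 in RelB-/- thymus, against 5.18, 4.38, 4.81 and 5.14 in RelB+/- thymus (log2 fold 0.16, SE 0.21, adjusted p = 0.756). These ranges overlapped, and the 95% interval of the log2 fold was -0.32 to 0.65. For Jag2, another ligand, the log2 fold came to 0.29 (SE 0.34, adjusted p = 0.729). For Notch4, a receptor of endothelium, it came to -0.22 (SE 0.20, adjusted p = 0.647). Dll3, Jag1 and Notch2 were not detected on any array, and Dll1 was above background on 1 RelB+/- array only.

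Of the nuclear cofactors and targets of Notch outside the 10 genes, 8 of 13 were measured, with a median log2 fold of 0.24. Nrarp, an ankyrin-repeat inhibitor that Notch induces, read 7.47, 7.59 and 7.49 in RelB-/- thymus, against 6.94, 7.39, 7.01 and 6.27 in RelB+/- thymus. All RelB-/- arrays lay above all RelB+/- arrays, a pattern with RelB-/- on top that 7.38% of all genes had. Its log2 fold was 0.61 (SE 0.24, adjusted p = 0.349). Hey1, a repressor gene related to Hes1, read 8.66, 9.05 and 8.54 in RelB-/- thymus, against 9.23, 8.64, 9.53 and 9.40 in RelB+/- thymus, with overlapping groups and a log2 fold of -0.45 (SE 0.24, adjusted p = 0.451). Il2ra, a marker of the stage that follows the earliest progenitors, exceeded background in 2 of 3 RelB-/- thymi and 1 of 4 RelB+/- thymi (log2 fold 0.37, SE 0.22, adjusted p = 0.493). Rbpj had no probe above background on any array.

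Of the genes for Notch maturation, cleavage and turnover, 16 of 21 were measured, with a median log2 fold of 0.13. The smallest p-values were those of Psen2 and Psenen, subunit genes of gamma-secretase, the protease that releases the receptor's intracellular part. Their log2 folds had opposite signs. Ncstn and Aph1a, subunit genes that were also measured, had log2 folds of 0.21 (adjusted p = 0.571) and 0.11 (adjusted p = 0.808). Psen2, a catalytic subunit gene, read 7.50, 7.48 and 7.40 in RelB-/- thymus, against 6.55, 6.85, 6.56 and 7.41 in RelB+/- thymus. RelB+/- 4 reached the RelB-/- level while the other RelB+/- arrays were lower (log2 fold 0.62, SE 0.22, adjusted p = 0.307). Psenen, another subunit gene, read 10.95, 11.07 and 10.99 in RelB-/- thymus, against 11.13, 11.22, 11.58 and 11.33 in RelB+/- thymus. Its groups did not overlap, with RelB-/- below, as for 6.25% of all genes (log2 fold -0.31, SE 0.15, adjusted p = 0.409).

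**Figure D2:**
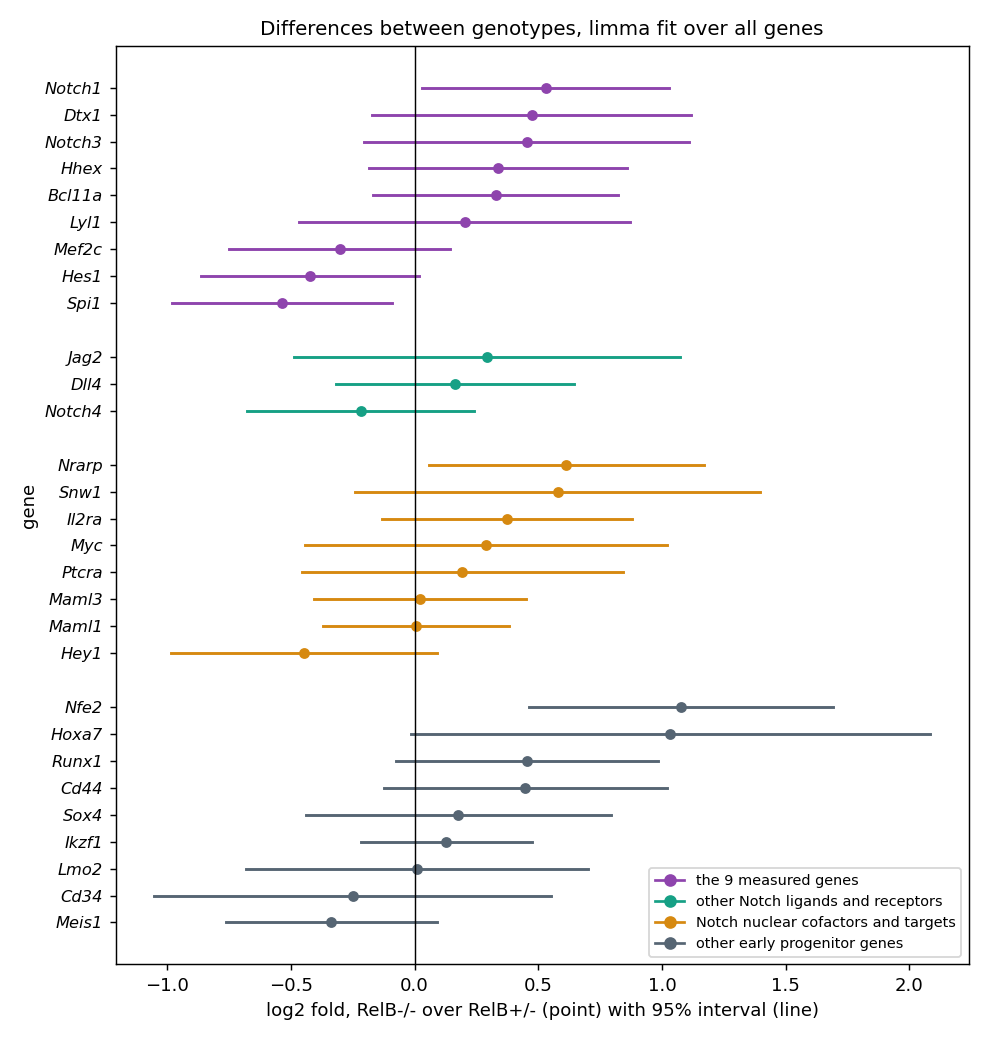
Log2 fold, RelB-/- over RelB+/- (horizontal axis), with its 95% interval for the measured genes of 4 colour groups: the 9 genes, other Notch ligands and receptors, Notch nuclear cofactors and targets, and other early progenitor genes. Of the intervals shown, those of Notch1, Spi1, Nrarp and Nfe2 exclude 0, and no gene shown passed the adjusted test.

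The progenitor transcription factor genes Lyl1, Hhex and Bcl11a had higher means in RelB-/- thymus. Lyl1, a basic helix-loop-helix factor gene of blood progenitors, read 5.98, 5.08 and 5.81 in RelB-/- thymus, against 5.35, 4.93, 5.40 and 6.01 in RelB+/- thymus. The probe was dim, RelB+/- 2 did not detect it, and the highest value of all was on RelB+/- 4. Its log2 fold was 0.20 (SE 0.29, 95% interval -0.47 to 0.87, adjusted p = 0.784) and turned to -0.06 without the arrays with heart muscle transcripts. Single arrays moved it to 0.03 without RelB-/- 1, 0.04 without RelB+/- 2, 0.11 without RelB-/- 3, 0.38 without RelB+/- 4 and 0.48 without RelB-/- 2. Hhex, a homeobox gene of early blood and endothelial cells, read 6.57, 6.30 and 6.58 in RelB-/- thymus, against 6.12, 6.73, 5.80 and 5.94 in RelB+/- thymus. All RelB-/- arrays exceeded 3 of the 4 RelB+/- arrays, while RelB+/- 2 was the highest array. The log2 fold was 0.34 (SE 0.23, 95% interval -0.19 to 0.86, adjusted p = 0.545). It was 0.54 without RelB+/- 2, 0.22 without RelB+/- 3 and 0.49 without both arrays with heart muscle transcripts. Endothelial markers, 5 of 6 measured, summed to 700 to 1242 on RelB-/- arrays and 785 to 1249 on RelB+/- arrays. The RelB-/- upper end was on RelB-/- 3, an array with heart muscle transcripts, and RelB-/- 1 and RelB-/- 2 summed to 700 and 749. The part of endothelial cells in the Hhex values was not tested.

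Bcl11a, a zinc finger factor gene of lymphoid and stem cells, read 6.99, 6.56 and 6.02 in RelB-/- thymus, against 6.25, 6.17, 6.14 and 6.22 in RelB+/- thymus. The RelB+/- arrays lay within an SD of 0.050, whereas the RelB-/- arrays had an SD of 0.49 and fell on both sides of them. The log2 fold was 0.33 (SE 0.22, 95% interval -0.17 to 0.82, adjusted p = 0.531). It was 0.09 without RelB-/- 1, 0.58 without RelB-/- 3 and 0.57 without the arrays with heart muscle transcripts. The difference in spread was not tested.

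Spi1 and Mef2c had lower means in RelB-/- thymus. Spi1 encodes PU.1, a factor that early progenitors share with myeloid and B cells and that T lineage commitment shuts off. Its probe passed the detection threshold in 0 of 3 RelB-/- thymi, against 3 of 4 RelB+/- thymi. The log2 levels were 4.36, 4.88 and 4.58 on the RelB-/- arrays, against 5.17, 4.76, 5.36 and 5.27 on the RelB+/- arrays. RelB+/- 2 lay below RelB-/- 2, so the groups overlapped. The measured means were 4.60 in RelB-/- and 5.14 in RelB+/- thymus (log2 difference -0.54, SE 0.19, adjusted p = 0.317), and no difference was called. As a bound against the lowest detected signal, the mean in RelB-/- thymus was at least 1.16-fold lower, for groups that overlap. That bound compares means only and carries no sampling error. The gene passed the detection filter only through the RelB+/- arrays, and it was not kept without RelB+/- 1, 3 or 4. Without both arrays with heart muscle transcripts the log2 difference was -0.67. The raw intensities were 92, 134 and 135 on the RelB-/- arrays, against 129, 102, 137 and 153 on the RelB+/- arrays. All lay close to the background.

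Markers were examined for the other cell types that express Spi1. Granulocyte genes, all 12 measured, had 3 genes called higher and 0 lower in RelB-/- thymus, and summed to intensities of 6632 to 25554 on RelB-/- arrays and 831 to 8585 on RelB+/- arrays. Both upper ends were on the arrays with heart muscle transcripts, RelB-/- 3 and RelB+/- 2. The other RelB-/- arrays summed to 6632 and 10280, and the other RelB+/- arrays to 1184, 831 and 2664. Macrophage genes, 7 of 10 measured, had 0 called and summed to 4229 to 7617 on RelB-/- arrays and 5384 to 10365 on RelB+/- arrays. B cell genes, 5 of 9 measured, had 0 called and summed to 869 to 1062 on RelB-/- arrays and 944 to 1544 on RelB+/- arrays. All 5 had negative log2 folds, whereas 53.8% of all genes had positive ones. Of the 5, Cd79a and Cd22 were detected in 0 of 3 RelB-/- thymi and 3 of 4 RelB+/- thymi. Both passed the detection filter only through the RelB+/- arrays, so their signs are no support for a difference. The defining B cell genes Ms4a1 and Pax5 were not detected on any array. The part of these cells in the Spi1 values was not tested.

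Mef2c, a MADS-box factor gene of early lymphoid progenitors and B cells, has 3 probes. The probe that stands for the gene read 6.23, 6.19 and 6.22 in RelB-/- thymus, against 6.73, 6.52, 6.02 and 6.78 in RelB+/- thymus. The RelB-/- arrays were nearly identical and lay above RelB+/- 3 but below the other RelB+/- arrays. The log2 fold was -0.30 (SE 0.20, 95% interval -0.75 to 0.15, adjusted p = 0.525). It was -0.46 without RelB+/- 3 and -0.21 without RelB+/- 4. A second kept probe, dimmer and above background in 1 of 3 RelB-/- thymi and 4 of 4 RelB+/- thymi, read 4.94, 4.81 and 5.22 in RelB-/- thymus, against 5.24, 5.30, 5.01 and 5.68 in RelB+/- thymus. It had nearly the same log2 fold, -0.32 (SE 0.19, adjusted p = 0.534 over all kept probes). The remaining probe was detected on no array and read at most 4.51 in RelB-/- and at most 4.84 in RelB+/- thymus. In the fit over kept probes 0 of the 10 probes of these genes were called, against 0.554% of all kept probes.

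Further genes of early progenitors, from a list of 17, were measured for 9, and 0 passed the test. Flt3, Tal1, Mycn and Ccr9 were not detected on any array. The median log2 fold of the 9 was 0.18, and 7 were positive, against 53.8% of all genes. Nfe2, a basic leucine zipper factor gene of megakaryocyte and erythroid lineages, read 7.29, 6.65 and 7.59 in RelB-/- thymus, against 6.08, 6.07, 5.68 and 6.56 in RelB+/- thymus. The RelB-/- arrays all lay above the RelB+/- arrays, as for 7.38% of all genes. The log2 fold of Nfe2 was 1.08 (SE 0.27, adjusted p = 0.166). Hoxa7, a homeobox gene of blood progenitors, read 8.73, 7.04 and 8.19 in RelB-/- thymus, against 7.06, 7.87, 6.38 and 6.51 in RelB+/- thymus, with overlapping groups (log2 fold 1.03, SE 0.46, adjusted p = 0.385). Nfe2 is expressed by myeloid cells too, and the part of the granulocyte difference given for Spi1 in these values was not tested.

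Genes that mark T lineage commitment, 11 of 13 measured, had 0 called and a median log2 fold of 0.010. Il7r, the interleukin 7 receptor gene, read 8.00, 8.15 and 7.71 in RelB-/- thymus, against 8.62, 8.22, 8.39 and 8.40 in RelB+/- thymus. Its groups did not overlap, with RelB-/- below, as for 6.25% of all genes (log2 fold -0.45, SE 0.16, adjusted p = 0.307). Bcl11b, the factor gene that completes commitment, read 13.57, 13.51 and 13.31 in RelB-/- thymus, against 13.21, 13.26, 13.17 and 13.35 in RelB+/- thymus (log2 fold 0.22, SE 0.13, adjusted p = 0.502). RelB+/- 4 lay above RelB-/- 3. Double-positive thymocyte genes, 6 of 8 measured and 0 called, had mean log2 levels of 9.54 to 9.72 on RelB-/- arrays and 9.35 to 9.65 on RelB+/- arrays, which overlap. Their summed intensities did not overlap, with 34647 to 36356 on RelB-/- arrays and 30470 to 32379 on RelB+/- arrays. Most of each sum came from Cd8b1, by far the brightest of the 6, with mean log2 levels of 14.99 in RelB-/- and 14.82 in RelB+/- thymus. Cd8b1 was not called (log2 fold 0.17, adjusted p = 0.553). Its groups did not overlap, with RelB-/- above, as for 7.38% of all genes. The part of double-positive thymocytes in the Notch receptor values was not tested.

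**Figure D3:**
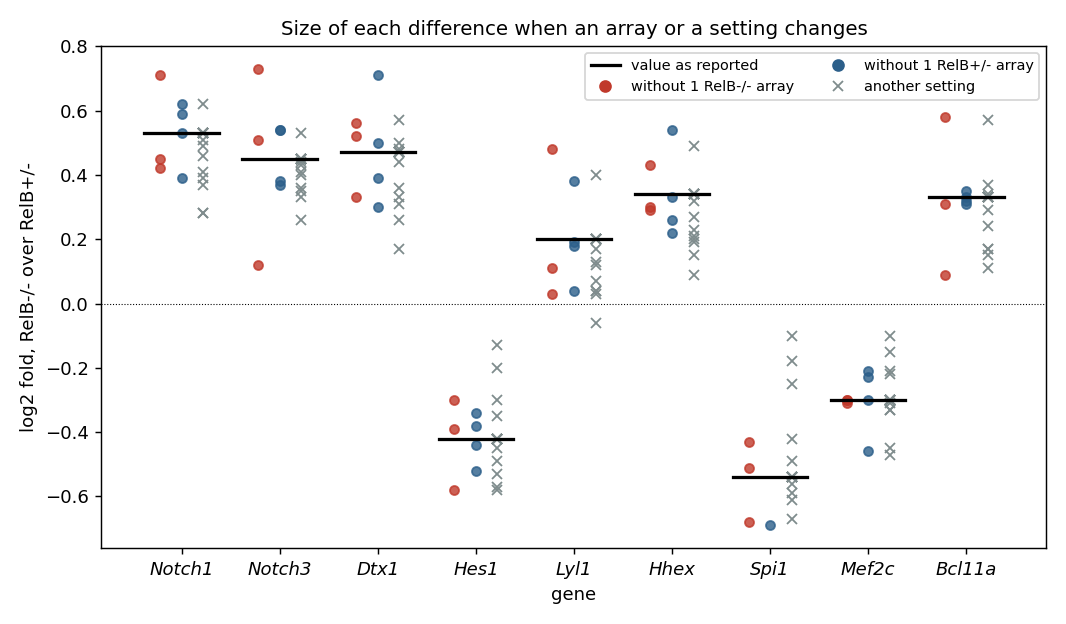
Log2 fold, RelB-/- over RelB+/- (vertical axis), of each gene (horizontal axis) as reported (black line), with 1 RelB-/- array left out (red), with 1 RelB+/- array left out (blue) and under each other setting (grey crosses). Every gene except Lyl1 keeps its sign, and Notch3 and Bcl11a come closest to 0 without RelB-/- 1.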

How the data were processed

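Total RNA of 7 thymi was labelled with biotin and hybridised to Illumina arrays, per the labels' protocols. Probe intensity was deposited without normalization between arrays, beside detection p-values, per the file headers. The submitters' processing notes name GenomeStudio, and its version and settings are not given in the sources used here. The authors also deposited processed values that behave as log2 values, used here as an alternative, and their transformation is not known (each array has a median of 7.65).

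Background was corrected with normexp in limma 3.58.1 (R 4.3.3) from the detection p-values with an offset of 16. The log2 values were quantile normalized. Among 25695 probes 23976 had 1 gene symbol, 1719 had none and 0 had several, and 23960 matched the RefSeq gene table of GRCm38.p6, which changed 0 symbols. The kept probe with the highest mean stood for a gene. Differences are RelB-/- minus RelB+/- from lmFit and eBayes over all 7 arrays, 2-sided, called at an adjusted p under 0.05. A probe not detected on any array of a genotype has only a bound there, which carries no sampling error. It sets the brighter mean against the average, over arrays of the dimmer genotype, of the probe's value or the array's lowest detected signal, whichever is higher. Offsets shrink the folds of dim probes, and the number of arrays limits the precision.

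The genes and the 19 other lists were chosen with earlier results of these data known. Named were all genes of the list, Relb, every measured Notch ligand and receptor, and of each other list the called genes and the 2 with the smallest p. Il2ra, Cd3d, Cd8b1, Rag1, Cd79a, Ncstn and Aph1a and the undetected genes were named in addition, after their values were seen. Simulated data of 9569 genes for this comparison gave calls for 55% of genes changed by a log2 fold of 1 and 91% at 2. Background correction, normalization, filter, variance model, array weights, probe rule, replicate block, chip position and single arrays were varied. Summed intensities of a marker list add the normalized linear values, offset included. No column was left out. Figures were drawn with matplotlib 3.10.9.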

Additional observations from a re-analysis of the deposited data

How the results depend on the processing

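The count of 0 called genes among the 9, and of 0 called probes among the 10, held under each alternative that keeps the adjusted threshold, including 0 without any single array (range 0 to 0 for genes and for probes). At an unadjusted p under 0.05 the counts were 2 genes, 2 probes and 1261 of all genes. Over all genes, 74 were called as reported, 25 with the authors' processed values and 15 among genes detected on all 7 arrays, where fewer genes are tested. That filter also removes called genes with no detected RelB-/- array, such as Relb and Fezf2. Leaving out single arrays gave 40 to 72, with 40 without RelB-/- 1 and 49 without RelB+/- 1. Without both arrays with heart muscle transcripts, an alternative chosen after seeing the data, it was 38. With the replicate number of the titles as a block, which leaves RelB+/- 4 without a partner, it was 24. No pairing by these numbers was evident, although 3 pairs cannot exclude one. Same-numbered arrays had correlations of their deviations from the group means of 0.32, -0.18 and -0.20. Only 1 of 3 RelB-/- arrays correlated best with its own number. The cause of these shifts was not tested. The only change of sign among the 9 genes was Lyl1 at -0.06 without the heart arrays. The other 8 genes kept their sign in each alternative that measured them, Notch1 from 0.28 to 0.71 and Spi1 from -0.69 to -0.10. Spi1 was not kept in 4 alternatives (genes detected on all 7 arrays, or without RelB+/- 1, RelB+/- 3 or RelB+/- 4), and Lyl1 was not kept in the first of these. Signal near background limits dim probes such as those of Spi1 and Lyl1.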

Other observations

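Of 6 measured medullary epithelial genes 4 were lower in RelB-/- thymus: Ccl21a (log2 fold -3.16, limma adjusted p = 0.00264), Krt14, Aire and Fezf2, of which Fezf2 was at least 3.87-fold lower (adjusted p = 0.000569). Cortical epithelial genes, 6 measured, had 0 called, with Krt18 at -0.97 (adjusted p = 0.215) and Krt8 at -0.94 (adjusted p = 0.232). Of 12 granulocyte genes 3 were higher: Chil3 (log2 fold 2.22, adjusted p = 0.00592), Ctsg (1.87, adjusted p = 0.0213) and Mpo (2.53, adjusted p = 0.0341). Chil3 was detected in 3 of 3 RelB-/- thymi and 1 of 4 RelB+/- thymi, and Ctsg in 3 of 3 and 2 of 4. Without the RelB-/- arrays neither would have passed the detection filter.

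Each of the remaining lists had 0 called genes. Double-positive thymocyte genes had a median log2 fold of 0.17, with Rag2 at 0.56 and Rag1 at 0.27. Eosinophil and mast cell genes, 7 measured, had one of -0.11, with Prg2 at 3.42 (adjusted p = 0.102) and Hdc with a lower mean in RelB-/- thymus (adjusted p = 0.286). The macrophage median was -0.13, with C1qc at -0.47 and Adgre1 at 0.58. The B cell median was -0.74, which is the value of Cd22, with Fcrla at -0.82. Cd22 was above background in 0 of 3 RelB-/- thymi and 3 of 4 RelB+/- thymi. As a bound, its mean in RelB-/- thymus was at least 1.18-fold lower, and no difference was called (adjusted p = 0.198). Cd22 passed the detection filter only through the RelB+/- arrays, so its detection is no support for a difference. The plasmacytoid dendritic cell median over 6 genes was 0.057, with Cox6a2 at 0.79 and Irf8 at -0.20. The conventional dendritic cell median over 4 genes was -0.072, with Batf3 at -0.55 and Irf4 at -0.16. The erythroid median over 3 genes was -0.28, with Epor at 0.49 and Alas2 at -1.63. The endothelial median was -0.078, with Esam at -0.37. Kdr was above background in 0 of 3 RelB-/- thymi and 3 of 4 RelB+/- thymi, and it too passed the filter only through the latter. The mural cell median was 0.030, with Myh11 at -0.55 and Tagln at 0.17. The adipocyte median over 4 genes was -0.59, with Adipoq at -1.47 and Lep at -0.52. Only 2 heart muscle genes were measured, Nppa (1.13) and Myl4 (0.97).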
